A study of Homo sapiens with 18 samples.

Results

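The 10 genes described here belong to the late stages of B-cell life: *JCHAIN*, *MZB1*, *XBP1*, *PRDM1*, *IRF4*, *GCSAM*, *BCL6*, *BACH2*, *POU2AF1* and *SPIB*, out of 26941 genes counted. *JCHAIN* was picked because it rose in RCH-ACV cells after *SOX11* knockdown, and *GCSAM* because it rose in REH cells, so these values are given as a description without a test. The other 8 genes were added to see whether regulators of germinal center or plasma cells moved with them. Each gene was read from the RefSeq transcript with the highest total count over all 18 libraries.

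Mature B cells that meet antigen can enter a germinal center, where BCL6 maintains the program and BACH2 delays the step to antibody secretion. In plasma cells Blimp-1, the product of *PRDM1*, shuts down the B-cell program, IRF4 and XBP1 drive secretion, and the J chain links IgM and IgA into polymers. IRF4, POU2AF1 and SPIB are also used earlier, in B-cell precursors, which are the cells that precursor B-cell leukemia arises from.

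The libraries came from 3 established precursor B-cell leukemia lines, each with 3 replicates transfected with *SOX11* siRNA and 3 with a non-specific control siRNA. REH cells carry the ETV6-RUNX1 fusion. All cells were nucleofected with 300 nM siRNA and harvested after 48 h, so the controls share the transfection, and the sample titles write KO although the knockdown was transient. The replicates are 3 independent transfections of 1 line, so the p-values describe the spread between transfections and not between patients.

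*SOX11* fell in every line. Its level in CPM (counts scaled to library size, here within the line) was 102, 101 and 97.0 in REH control replicates 1 to 3 and 49.8, 55.9 and 63.7 with *SOX11* siRNA. In 697 the mean dropped to 30.4 CPM from 57.3, in RCH-ACV to 82.6 CPM from 131, and the groups did not overlap in any line. The libraries held 7039594 to 16592492 counts on these genes, with a median of 8759235, and 3 counts correspond to 0.181 to 0.426 CPM. Of 10 B-cell precursor markers 9 were read in REH, where *VPREB1* had 0 to 1 counts, and all 10 in 697 and RCH-ACV, whereas the summed level of 6 T-cell markers stayed at or below 0.580 CPM and that of 4 erythroid markers at or below 0.391 CPM. A single library of RCH-ACV weighed on its results. With all 6 libraries 991 of 12963 genes were called, that is had an adjusted p under 0.05 (7.64%), and without *SOX11* siRNA replicate 3 there were 2518 of 13088 (19.2%), so the RCH-ACV values of the 10 genes and the counts of the gene lists are given with and without it.

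*JCHAIN* lies on chromosome 4 on the minus strand, and its 4-exon transcript spans chr4:71521258-71532225 in hg19. *GCSAM*, a germinal center adaptor protein that restrains lymphocyte motility, lies on the minus strand of chromosome 3 at chr3:111839686-111852095 with 6 exons. The 250 bases upstream of both start sites are shown because the set was built around these genes, 5′ to 3′ along each gene's own strand. They are RefSeq sequences that matched hg19 exactly once, at chr4:71532226-71532475 for *JCHAIN* and chr3:111852096-111852345 for *GCSAM*. A stretch of 60 bases upstream of *BACH2* (chr6:91006592-91006651, minus strand) is shown for the same word. Capitals mark AACAAT, a word bound by SOX proteins, or its reverse complement ATTGTT.
JCHAIN: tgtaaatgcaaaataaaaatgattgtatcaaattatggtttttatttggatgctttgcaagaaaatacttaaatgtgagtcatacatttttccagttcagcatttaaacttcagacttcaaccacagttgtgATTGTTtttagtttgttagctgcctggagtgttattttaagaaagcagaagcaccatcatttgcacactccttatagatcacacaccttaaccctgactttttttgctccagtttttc
GCSAM: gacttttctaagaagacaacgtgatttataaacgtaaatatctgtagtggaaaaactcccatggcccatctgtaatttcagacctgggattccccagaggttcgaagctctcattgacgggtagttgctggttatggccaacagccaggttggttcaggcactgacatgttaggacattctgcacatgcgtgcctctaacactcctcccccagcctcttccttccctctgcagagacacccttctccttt
BACH2: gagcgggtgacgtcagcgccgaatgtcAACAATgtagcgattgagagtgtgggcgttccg

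The *JCHAIN* sequence was rich in A and T, with 32.8% G and C against 48.4% for *GCSAM*. It held ATTGTT with its first base 118 bases before the start site, and the *BACH2* stretch held AACAAT 62 bases before its start site. On either strand AACAAT was found in 10.1% of 35116 RefSeq promoter windows of 250 bases before to 50 after the start. The other words searched on both strands were AACAAAG, a second SOX word (5.2% of windows), the octamer ATGCAAAT read by POU2AF1 partners (1.77%), and GAANNGAAA, a composite word for ETS and IRF factors (7.66%). None of these 3 words was found in the windows of the 9 members that had one. A matched word is a description of the letters and not a binding site. No window was used for *POU2AF1*.

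The other genes are spread over the genome, all positions in hg19. *XBP1* spans chr22:29190543-29196585, *MZB1* chr5:138723156-138725602, *BCL6* chr3:187439169-187463256, *BACH2* chr6:90636247-91006562 and *POU2AF1* chr11:111222980-111250000, all on the minus strand. *PRDM1* spans chr6:106534211-106557813, *IRF4* chr6:391752-411443 and *SPIB* chr19:50922195-50934571, on the plus strand. The *SPIB* transcript shared 839 exon bases (22.1%) with another gene on the same strand, so its counts are uncertain to that extent. On the opposite strand exons of other genes shared 87 bases with *JCHAIN* (6.8% of the transcript), 69 with *GCSAM* (2.1%, from *C3orf52*), 171 and 59 with *BCL6* (5.2% and 1.8%) and 396 with *BACH2* (4.3%). The strand setting of the counting is not known, so reads of these stretches cannot be told apart from those of the other gene.

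The lines differed widely in these genes before any knockdown, and *JCHAIN* differed most. Levels between genes are given as RPKM, reads normalized for transcript length and library size, scaled over all 18 libraries. With control siRNA *JCHAIN* stood at 622 ± 35.2 RPKM in 697 (SD, n = 3), above the other 9 genes in that line, and at 5.59 ± 0.804 RPKM in RCH-ACV. In REH its 3 control libraries held 3, 1 and 1 counts. From the summed counts, 17926 in 697 and 5 in REH, the CPM ratio of 697 over REH was 4979 (95% counting interval 2133 to 15337). The ratio was 44.3 for RCH-ACV over REH (18.7 to 138) and 112 for 697 over RCH-ACV (96.9 to 131), and these intervals cover counting error only. The order was therefore 697, RCH-ACV and REH, and no neighbours in it overlapped.

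The plasma cell markers did not share one pattern in 697. *SDC1*, the plasma cell surface marker CD138, had 0 counts in all 6 libraries of 697, while its mean was 20.8 CPM in REH and 47.2 CPM in RCH-ACV. *TNFRSF17*, the receptor BCMA, had 0 to 8 counts and *SLAMF7* 0 to 1 in any library. *CD38*, a surface enzyme of plasma cells that B-cell precursors also carry, stood at 138 ± 8.39 CPM in 697 controls, against 248 ± 12.4 CPM in REH and 156 ± 2.89 CPM in RCH-ACV controls. These *CD38* values were scaled within each line, so they compare the lines only roughly. The secretory markers *FKBP11* and *DERL3* were read in 697 at means of 45.1 and 17.3 CPM, over its 6 libraries with either siRNA as for *SDC1*. *PRDM1* was at or near the lowest level of the 10 genes in each line, with 22 to 43 counts in 697 controls (0.823 ± 0.199 RPKM), 8 to 21 in RCH-ACV (0.299 ± 0.148 RPKM) and 4 to 21 in REH (0.189 ± 0.115 RPKM). Its level in 697 exceeded that of REH by 2.01 ± 0.34 on the log2 scale (SE, edgeR adjusted p = 3.63e-05) and that of RCH-ACV by less, with RCH-ACV minus 697 at -1.45 ± 0.33 (edgeR adjusted p = 0.000938).

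The secretory regulators were high in all lines and differed by little. *XBP1*, the transcription factor of the unfolded protein response, led the 10 genes in REH at 157 ± 3.69 RPKM and in RCH-ACV at 132 ± 4.22 RPKM, and stood at 146 ± 9.63 RPKM in 697. *MZB1*, a chaperone of the endoplasmic reticulum that helps IgM assembly, stood at 76.6 ± 2.32, 77.1 ± 7.94 and 85.2 ± 0.708 RPKM in REH, 697 and RCH-ACV. REH and 697 were not told apart for either gene (edgeR adjusted p = 0.0765 for *XBP1* and 0.814 for *MZB1*), nor were 697 and RCH-ACV for *MZB1* (edgeR adjusted p = 0.0653). *XBP1* was lower in RCH-ACV than in REH, by -0.24 ± 0.05 on the log2 scale (edgeR adjusted p = 0.000233), a call kept in every alternative run.

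*IRF4* and *BCL6* were highest in RCH-ACV, and *BACH2*, *SPIB* and *POU2AF1* in REH. *IRF4* stood at 20.3 ± 0.968 RPKM in REH, 17.2 ± 1.44 in 697 and 34.0 ± 0.118 in RCH-ACV. *BCL6*, a repressor, stood at 32.0 ± 1.45, 28.5 ± 1.31 and 50.5 ± 0.586 RPKM in the same order. *BACH2*, a repressor that opposes *PRDM1*, fell from 26.0 ± 1.40 RPKM in REH to 14.4 ± 1.49 in 697 and 8.03 ± 0.0892 in RCH-ACV. *SPIB*, an ETS factor, followed the same order at 9.30 ± 0.770, 3.37 ± 0.480 and 1.38 ± 0.247 RPKM. *POU2AF1*, the coactivator OBF-1, stood at 76.5 ± 1.03 RPKM in REH against 24.6 ± 0.792 in 697 and 20.8 ± 1.56 in RCH-ACV. *GCSAM* had its own order, 55.5 ± 3.37 RPKM in 697, 23.8 ± 1.64 in REH and 10.8 ± 0.915 in RCH-ACV.

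Between control libraries 8 of the 10 genes passed the test for REH against 697, beside 76.3% of all genes tested. For REH against RCH-ACV 9 passed (73.9% of all genes), with *PRDM1* the exception at an edgeR adjusted p of 0.251. For 697 against RCH-ACV 9 passed (64.2%), with *MZB1* the exception. These shares lie near or above those of all genes, since most genes differed between the lines. Several small differences were lost when 1 control library was left out, as for *XBP1* between 697 and RCH-ACV (edgeR adjusted p = 0.0178, at most 0.0823), *BCL6* between REH and 697 (0.0152, at most 0.0800) and *MZB1* between REH and RCH-ACV (0.0285, at most 0.0941). The *MZB1* call was also lost in 1 of the 4 alternatives that kept every library. Some differences that were not called passed when 1 control library was left out. They were *XBP1* between REH and 697 (lowest edgeR adjusted p = 0.00295), *MZB1* between 697 and RCH-ACV (0.0225) and *PRDM1* between REH and RCH-ACV (0.0400).

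**Figure D1:**
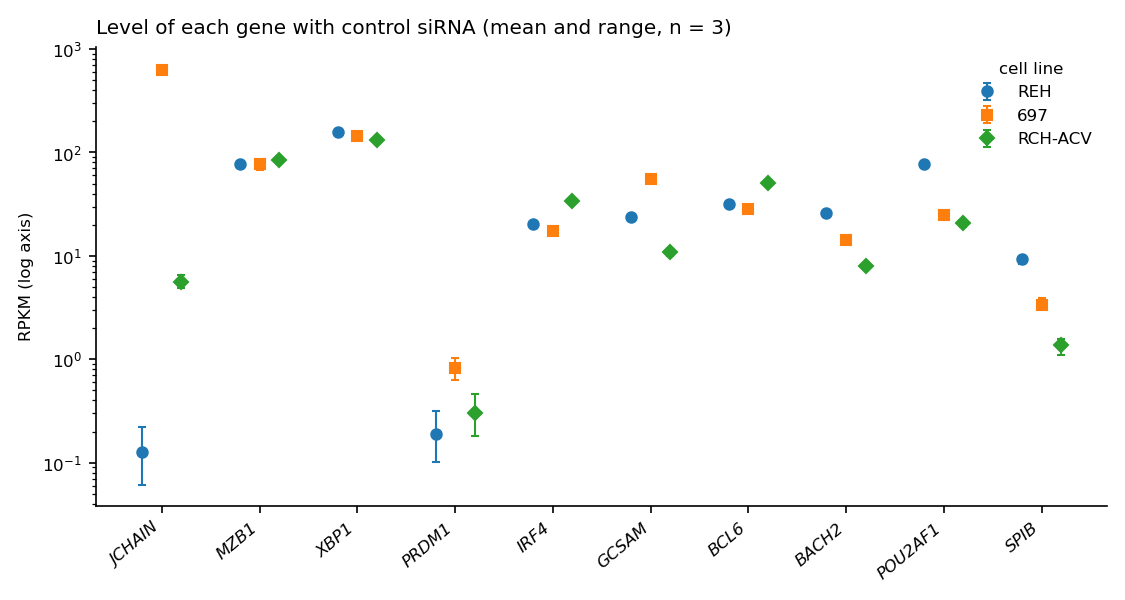
Level of each of the 10 genes in RPKM on a log axis, with control siRNA, in REH, 697 and RCH-ACV. Points are means of 3 libraries and bars run from the lowest to the highest, and *JCHAIN* spans from 0.128 RPKM in REH to 622 RPKM in 697 while *XBP1* and *MZB1* stay close together.

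In REH cells *SOX11* siRNA raised *IRF4* and *BACH2* alongside *GCSAM*, while *XBP1* and *MZB1* did not pass the test. From here on levels are CPM scaled within the line, and log2 fold changes are *SOX11* siRNA over control siRNA. The *GCSAM* values that chose it were 86.5, 81.2 and 75.7 CPM in control replicates 1 to 3 and 124, 134 and 139 CPM with *SOX11* siRNA, a log2 fold change of 0.70 ± 0.05 (SE). All 3 knockdown libraries lay above all 3 controls. In bulk RNA a change in the share of cells that express a gene cannot be told apart from a change in the RNA of each cell, here and below.

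*IRF4*, a factor used at low level in activated B cells and at high level in plasma cells, read 117, 112 and 107 CPM in the control libraries and 151, 147 and 151 CPM with *SOX11* siRNA. The groups were well apart, at a log2 fold change of 0.41 ± 0.04 (SE, n = 3 against 3, edgeR quasi-likelihood test, adjusted p = 1.67e-06). *BACH2* read 248, 262 and 236 CPM against 307, 270 and 307 CPM, with knockdown replicate 2 the closest to the controls but still above them. Its log2 fold change was 0.24 ± 0.05 (edgeR adjusted p = 0.00189). Both calls held in every alternative run, with *IRF4* between 0.39 and 0.45 and *BACH2* between 0.21 and 0.30.

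Of 7 genes tested in REH these 2 were called, both higher. Over all genes 595 of 12787 were called (4.65%), 2.64% as higher and 2.02% as lower. *MZB1* was also higher in all 3 knockdown libraries, at 85.4, 81.8 and 76.7 CPM against 71.5, 73.0 and 76.2 CPM, but the lowest knockdown and the highest control library nearly touched and the test was not passed (log2 fold change 0.15 ± 0.05, edgeR adjusted p = 0.138). Thus 3 of the 7 genes were higher without overlap, where 10.9% of all genes were higher and 10.6% lower in this way. *SPIB* stood at 42.4 ± 5.06 CPM against 36.6 ± 3.05 CPM and overlapped (log2 fold change 0.20 ± 0.08, edgeR adjusted p = 0.192), but passed without knockdown replicate 3 (0.31, edgeR adjusted p = 0.0269). *XBP1* (301 ± 3.10 against 301 ± 7.19 CPM), *BCL6* (109 ± 4.95 against 110 ± 5.25 CPM) and *POU2AF1* (223 ± 3.75 against 229 ± 3.06 CPM) had log2 fold changes of 0.00071, -0.0091 and -0.038, each with a standard error of at most 0.050.

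*JCHAIN* and *PRDM1* failed the filter on low counts in REH. *JCHAIN* had 3, 2 and 4 counts with *SOX11* siRNA against 3, 1 and 1 in controls, and *PRDM1* had 7, 7 and 11 against 8, 21 and 4. Neither gene was tested for a difference at this depth. Among markers of other cells, the summed level of 7 myeloid genes lay between 15.1 and 17.0 CPM in REH controls and between 9.49 and 11.0 CPM with *SOX11* siRNA, with *S100A8* and *S100A9* at 0, and most of it was *MPO*, which fell from 14.1 to 8.24 CPM. The 10 B-cell precursor markers summed to 6019 to 6065 CPM in controls and 6441 to 6468 CPM with *SOX11* siRNA. Of 9 tested, 3 were called higher (*RAG1* 0.20, *CD24* 0.13 and *CD79A* 0.13) and none lower, beside 2.64% and 2.02% of all genes. The part of these shifts in the results was not tested.

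In 697 cells none of the 10 genes was called, where 68 of 12169 genes were (0.559%, with 0.0822% higher and 0.477% lower). *JCHAIN*, already at its highest level here, read 799, 732 and 772 CPM in the controls and 893, 867 and 1012 CPM with *SOX11* siRNA. All 3 knockdown libraries lay above the controls, at a log2 fold change of 0.27 ± 0.06 that did not pass the edgeR test (adjusted p = 0.108). It passed in DESeq2 (adjusted p = 0.0187) and without control replicate 1 in edgeR (adjusted p = 0.0440), and the adjusted p ranged from 0.0187 to 0.425 over all alternatives. *JCHAIN* was the only member that DESeq2 called in 697, where it called 0.698% of genes.

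*GCSAM* was likewise higher in each knockdown library of 697, at 206, 196 and 189 CPM against 183, 174 and 167 CPM (log2 fold change 0.17 ± 0.06, edgeR adjusted p = 0.361). *XBP1* was lower in each, at 232, 233 and 225 CPM against 272, 260 and 244 CPM (-0.17 ± 0.05, edgeR adjusted p = 0.309). These 2 higher and 1 lower genes without overlap stand beside 6.15% and 7.81% of all genes. *PRDM1* had 19, 28 and 23 counts with *SOX11* siRNA against 43, 22 and 31 in controls, which overlap (log2 fold change -0.64 ± 0.24, edgeR adjusted p = 0.482). At an unadjusted p under 0.05 these 4 genes of 10 would pass, beside 8.31% of all genes.

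The remaining 6 genes overlapped between the groups in 697. *IRF4* stood at 80.8 ± 5.65 CPM against 87.8 ± 6.11 CPM, *BACH2* at 114 ± 10.9 against 127 ± 11.5 CPM and *BCL6* at 87.2 ± 9.94 against 90.6 ± 3.90 CPM. *POU2AF1*, *SPIB* and *MZB1* had log2 fold changes of -0.05 ± 0.06, -0.13 ± 0.16 and 0.07 ± 0.11. The B-cell precursor markers summed to 4702 to 4927 CPM in the controls of 697 and 3998 to 4187 CPM with *SOX11* siRNA. Of 10 tested, 3 were called lower and none higher, beside 0.477% and 0.0822% of all genes. They were *VPREB3* (-0.64), *RAG1* (-0.41) and *DNTT* (-0.27), and their part in the results was not tested.

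In RCH-ACV cells *JCHAIN* rose several-fold, *GCSAM* and *MZB1* rose modestly and *XBP1* fell slightly. *JCHAIN* read 6.97, 8.35 and 6.30 CPM in the controls and 36.5, 35.1 and 25.2 CPM with *SOX11* siRNA, the values that chose it. Every knockdown library was far above every control, at a log2 fold change of 2.18 ± 0.15 (SE), or 2.31 ± 0.11 without knockdown replicate 3. The raised level still lay far below the level of 697, at 25.0 ± 4.72 RPKM against 622 ± 35.2 RPKM in 697 controls.

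*MZB1* read 78.5, 79.8 and 78.8 CPM in RCH-ACV controls and 107, 109 and 83.8 CPM with *SOX11* siRNA. Knockdown replicates 1 and 2 were clearly higher, and replicate 3 lay just above the controls. The log2 fold change was 0.35 ± 0.08 (edgeR adjusted p = 0.0122), 0.45 ± 0.05 without replicate 3 (edgeR adjusted p = 7.88e-08), and the call was lost when any other library was left out (adjusted p up to 0.0978).

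*GCSAM* read 36.1, 38.5 and 32.4 CPM in RCH-ACV controls against 43.4, 50.9 and 43.5 CPM, without overlap. Its log2 fold change was 0.39 ± 0.08 (edgeR adjusted p = 0.00885) with all libraries and 0.43 ± 0.08 without knockdown replicate 3 (edgeR adjusted p = 0.000151), and it missed the test without knockdown replicate 2 (0.29, adjusted p = 0.0915) or without control replicate 3 (0.32, adjusted p = 0.0676). *XBP1* read 238, 243 and 253 CPM in controls against 221, 215 and 218 CPM, also without overlap. It fell by 0.17 ± 0.04 on the log2 scale (edgeR adjusted p = 0.0204), a call lost on leaving out any library but knockdown replicate 3 (adjusted p up to 0.118). Without that replicate its log2 fold change was -0.17 ± 0.04 (edgeR adjusted p = 0.00179).

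Of the 9 genes tested in RCH-ACV 3 were called, 2 higher and 1 lower, beside 7.64% of all genes (3.68% higher and 3.97% lower). The same 3 genes did not overlap between the groups, beside 12.2% of all genes higher and 13.9% lower. Without knockdown replicate 3 the count was 6 of 9, 4 higher and 2 lower, beside 19.2% of all genes. *SPIB* showed the pattern of that library most plainly, with 8.25, 8.18 and 4.58 CPM in knockdown replicates 1 to 3 against 5.94, 4.17 and 5.60 CPM in controls. Its log2 fold change was 0.44 ± 0.21 (edgeR adjusted p = 0.218), and 0.63 ± 0.17 without replicate 3 (edgeR adjusted p = 0.00722).

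*BCL6* read 192, 188 and 162 CPM against 168, 165 and 169 CPM, and *BACH2* 63.3, 63.3 and 83.7 CPM against 73.2, 74.6 and 74.7 CPM, so replicate 3 alone lay on the other side of the controls for both repressors. With it neither passed (edgeR adjusted p = 0.256 and 0.579). Without it *BCL6* was higher by 0.18 ± 0.04 on the log2 scale (edgeR adjusted p = 0.00212) and *BACH2* differed by -0.23 ± 0.06 (edgeR adjusted p = 0.00337). Why this library differs was not tested.

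The other plasma cell regulators did not pass in RCH-ACV with or without replicate 3. *IRF4* stood at 179 ± 4.45 CPM against 181 ± 0.533 CPM (log2 fold change -0.02 ± 0.04, and -0.04 ± 0.04 without replicate 3). *PRDM1* had 7, 11 and 12 counts with *SOX11* siRNA and 21, 10 and 8 in controls (-0.80 ± 0.39, edgeR adjusted p = 0.237). Without knockdown replicate 3 the log2 fold change was -1.08 ± 0.42 (edgeR adjusted p = 0.0679), and without control replicate 1, the library with 21 counts, it was -0.31 (edgeR adjusted p = 0.768). *POU2AF1* had a log2 fold change of 0.098 ± 0.070, and 0.099 ± 0.067 without replicate 3. The 5 plasma cell markers summed to 80.6 to 87.2 CPM in controls and 78.7 to 102 CPM with *SOX11* siRNA. The B-cell precursor markers summed to 5252 to 5511 CPM and 4266 to 5193 CPM, but the markers moved both ways. *DNTT*, the enzyme that adds bases at immunoglobulin joints, fell from 2479 ± 99.0 to 1914 ± 337 CPM (-0.37 ± 0.08, edgeR adjusted p = 0.00689), and *CD24* was the other called lower (-0.23). *CD79A*, a chain of the B-cell receptor, rose from 129 ± 5.42 to 176 ± 16.4 CPM (0.46 ± 0.06, edgeR adjusted p = 0.000255), and *CD22* was the other called higher (0.20). These 2 higher and 2 lower of 10 stand beside 3.68% and 3.97% of all genes. Without replicate 3 there were 2 higher and 3 lower, with *RAG1* (-0.39) joining the lower ones, beside 19.2% of all genes called. The part of these shifts in the results was not tested.

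**Figure D2:**
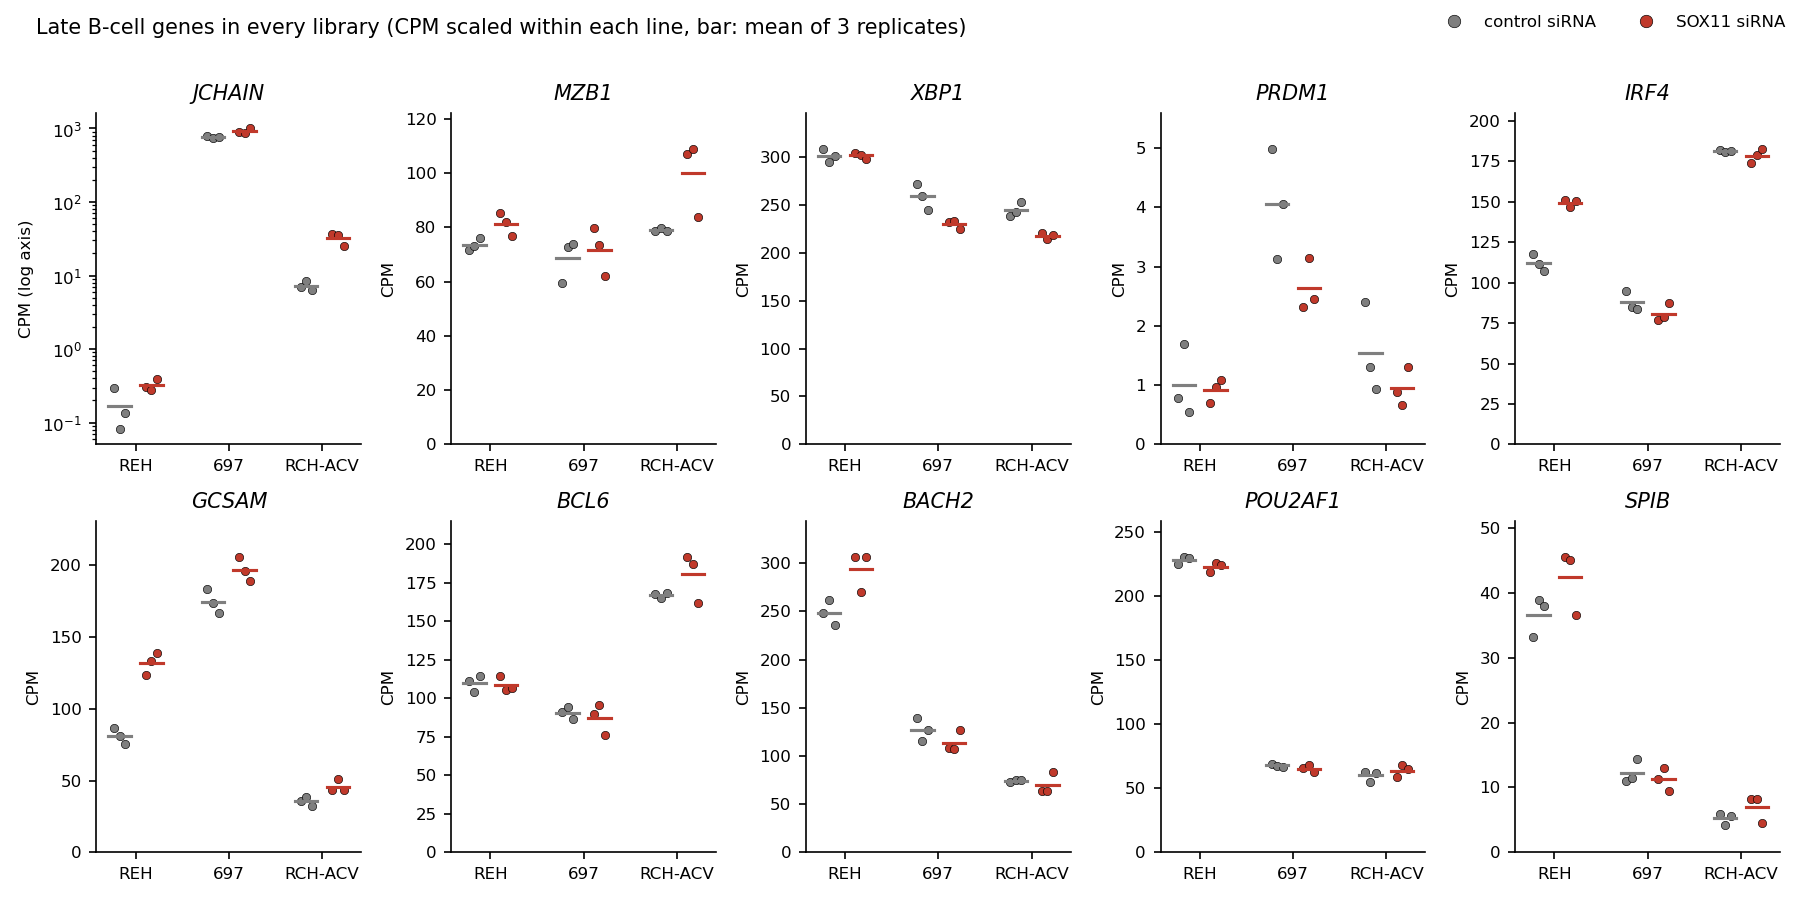
Level of each gene in every library in CPM scaled within the line (*JCHAIN* on a log axis, the others from 0), control siRNA in gray and *SOX11* siRNA in red, with a bar at the mean of 3. The groups do not overlap for *GCSAM*, *IRF4*, *BACH2* and *MZB1* in REH or for *JCHAIN*, *GCSAM* and *XBP1* in 697. In RCH-ACV they do not overlap for *JCHAIN*, *GCSAM*, *MZB1* and *XBP1*. There 1 knockdown library of *MZB1*, *BCL6*, *BACH2* and *SPIB* lies apart from the other 2.

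**Figure D3:**
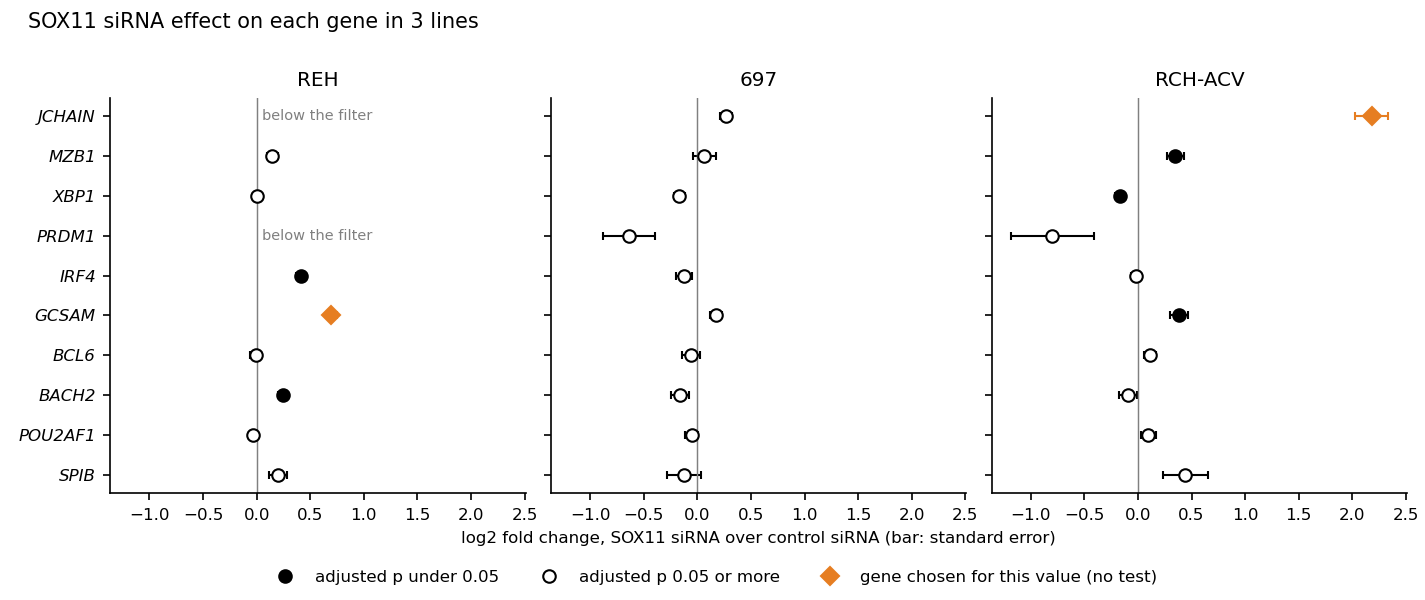
Log2 fold change of *SOX11* siRNA over control siRNA for each gene in 3 lines, with standard errors. Filled circles passed the edgeR test, open circles did not, and orange diamonds mark the *JCHAIN* value of 2.18 in RCH-ACV and the *GCSAM* value of 0.70 in REH, which chose those genes.

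**Figure D4:**
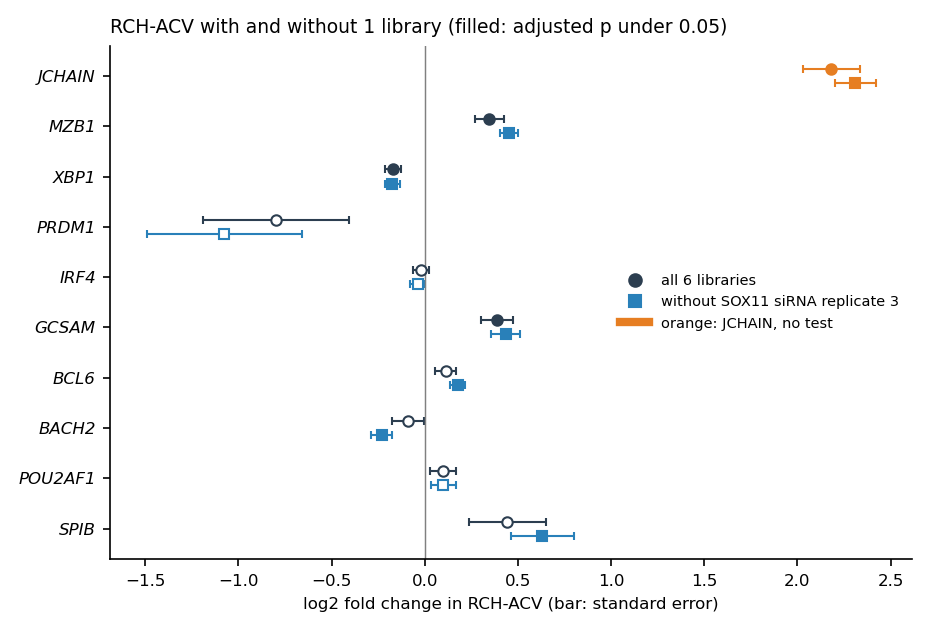
Log2 fold changes with standard errors in RCH-ACV from all 6 libraries (circles) and without *SOX11* siRNA replicate 3 (squares), filled where the edgeR test was passed. *BCL6*, *BACH2* and *SPIB* pass in the fit without that library and not in the fit of all 6, and *JCHAIN* (orange, no test) changes from 2.18 to 2.31.

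Whether the effect differed between the lines was tested with an interaction term over all 18 libraries, for the 8 genes not chosen on their response. *IRF4* was the gene that passed (edgeR adjusted p = 0.00134), beside 0.727% of all genes, and the other 7 had adjusted p from 0.221 to 0.934. The *IRF4* effect in 697 minus that in REH was -0.53 ± 0.08 on the log2 scale (SE, edgeR adjusted p = 0.00244, 0.285% of genes called). In RCH-ACV minus REH it was -0.43 ± 0.08 (edgeR adjusted p = 0.00456, 0.713% of genes called). Between 697 and RCH-ACV no difference was called (0.10 ± 0.08, edgeR adjusted p = 0.886, 0.0998% of genes called). Leaving out each of the 18 libraries in turn gave an adjusted p between 0.00018 and 0.0108. *BACH2* was called higher in REH (0.24) and lower in RCH-ACV without knockdown replicate 3 (-0.23), but not with all libraries there. Over all 18 libraries, with that replicate kept, its effect was not shown to differ between the lines (edgeR adjusted p = 0.221).

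The wider germinal center program was read from 20 further genes. In REH 3 of 14 tested rose and 1 fell, beside 2.64% and 2.02% of all genes, with a median log2 fold change of 0.08 against -0.0023 for all genes. *MME*, the surface peptidase CD10 that also marks B-cell precursors, rose from 1177 ± 20.9 to 1505 ± 52.1 CPM (0.36 ± 0.03, edgeR adjusted p = 5.30e-08). *KLHL6*, needed for germinal center formation, rose from 170 ± 7.26 to 207 ± 7.65 CPM (0.28 ± 0.04, edgeR adjusted p = 0.000131). The other called genes were *FOXO1* at 0.14 and *MEF2C* at -0.10, both factors used from the precursor stage on.

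In 697 none of 12 germinal center genes tested was called, beside 0.559% of all genes, with a median of -0.00087. In RCH-ACV 3 of 13 rose and none fell, beside 3.68% and 3.97% of all genes, with a median of 0.03 against 0.0051 for all genes. *ELL3* rose from 10.3 ± 0.169 to 14.9 ± 2.16 CPM (0.57 ± 0.13, edgeR adjusted p = 0.0101), and *MME* from 10.3 ± 0.917 to 15.1 ± 1.38 CPM (0.56 ± 0.12, edgeR adjusted p = 0.00728). *S1PR2*, a receptor that confines B cells to the germinal center, was the other at 0.55. Without knockdown replicate 3 there were 4 higher and 3 lower, beside 19.2% of all genes called, and the list's median was -0.0028. The higher ones were *NEIL1* (0.75), *ELL3* (0.66), *S1PR2* (0.62) and *MME* (0.50). *NEIL1* was low in level, at 2.33 ± 0.671 CPM in controls, and did not pass with all libraries (0.62 ± 0.27, edgeR adjusted p = 0.186). The lower ones were *LMO2* (-0.49), *FOXO1* (-0.20) and *MEF2C* (-0.13).

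Of 15 plasma cell genes 4 of 11 tested rose in RCH-ACV and none fell, beside 3.68% and 3.97% of all genes, with a median of 0.08. *TENT5C*, which stabilizes immunoglobulin mRNA, rose from 1.92 ± 0.425 to 4.37 ± 0.562 CPM (1.22 ± 0.23, edgeR adjusted p = 0.00285). *CD27*, a receptor of memory B and plasma cells, rose from 1.25 ± 0.192 to 2.81 ± 0.235 CPM (1.19 ± 0.26, edgeR adjusted p = 0.00828). Both stayed low in level, and *FKBP11* (0.45) and *SEL1L3* (0.34) were the others called. Without knockdown replicate 3 the same 4 genes were called (*TENT5C* 1.24, *CD27* 1.17, *FKBP11* 0.56 and *SEL1L3* 0.29), whereas the share of all genes called rose from 7.64% to 19.2%. In REH 1 of 10 rose, beside 2.64% of all genes. This was *CD38*, which went from 248 ± 12.4 to 304 ± 13.6 CPM (0.29 ± 0.04, edgeR adjusted p = 8.01e-05), and the list's median was -0.09. In 697 none of 10 was called, beside 0.559% of all genes, with a median of 0.08.

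The secretory pathway and unfolded protein response list, which holds many genes that XBP1 activates in plasma cells, was tested in full, 27 of 27 in every line. Its medians lay slightly below 0, at -0.05 in REH and 697 and -0.08 in RCH-ACV. The REH cells showed a rise of *EDEM1* (0.28 ± 0.04, edgeR adjusted p = 1.67e-05), and the chaperone *HSP90B1* fell by 0.12 ± 0.03 on the log2 scale (edgeR adjusted p = 0.0289). This 1 higher and 1 lower gene of 27 stand beside 2.64% and 2.02% of all genes. In RCH-ACV *HSP90B1* fell by 0.17 ± 0.04 (edgeR adjusted p = 0.00917) and *PDIA6* by 0.11 ± 0.03 (edgeR adjusted p = 0.0445), beside 3.97% of all genes called lower. Without knockdown replicate 3 there were 2 higher and 6 lower, beside 19.2% of all genes called, with *HSP90B1* at -0.14 and *PDIA6* at -0.12 still among the lower ones. None was called in 697, beside 0.559% of all genes.

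Genes that Blimp-1 represses in plasma cells gave 2 calls among 6 genes for REH and 1 call each for 697 and RCH-ACV, beside 4.65%, 0.559% and 7.64% of all genes. *MYC* fell in REH by 0.25 ± 0.04 on the log2 scale (edgeR adjusted p = 0.000227). *EBF1*, an early B-cell factor, fell by 0.13 ± 0.03 in REH (edgeR adjusted p = 0.0294) and by 0.34 ± 0.06 in 697 (edgeR adjusted p = 0.0311). *CD22*, an inhibitory receptor, rose in RCH-ACV (0.20 ± 0.05, edgeR adjusted p = 0.0149), and by 0.25 without knockdown replicate 3. In that fit there were 2 higher and 1 lower beside 19.2% of all genes. *MYC* was the other higher one (0.11, edgeR adjusted p = 0.0130) and *EBF1* the lower one (-0.25, edgeR adjusted p = 2.73e-06). With all RCH-ACV libraries neither *EBF1* (-0.17 ± 0.05, edgeR adjusted p = 0.0570) nor *MYC* (0.09 ± 0.04, edgeR adjusted p = 0.194) passed. The medians were 0.02, -0.10 and 0.06 in REH, 697 and RCH-ACV.

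Among 15 partner factors of the members REH had 1 call of 14 tested, RCH-ACV 2 of 14 and 697 0 of 13, beside 4.65%, 7.64% and 0.559% of all genes. *POU2F2*, the octamer factor Oct-2 that binds POU2AF1, rose in REH from 8.38 ± 1.58 to 14.1 ± 2.32 CPM (0.76 ± 0.14, edgeR adjusted p = 0.00189). In RCH-ACV *IKZF1*, or Ikaros, fell by 0.31 ± 0.05 on the log2 scale (edgeR adjusted p = 0.000508). Without knockdown replicate 3 its log2 fold change was -0.36, and there were 3 higher and 2 lower beside 19.2% of all genes.

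**Figure D5:**
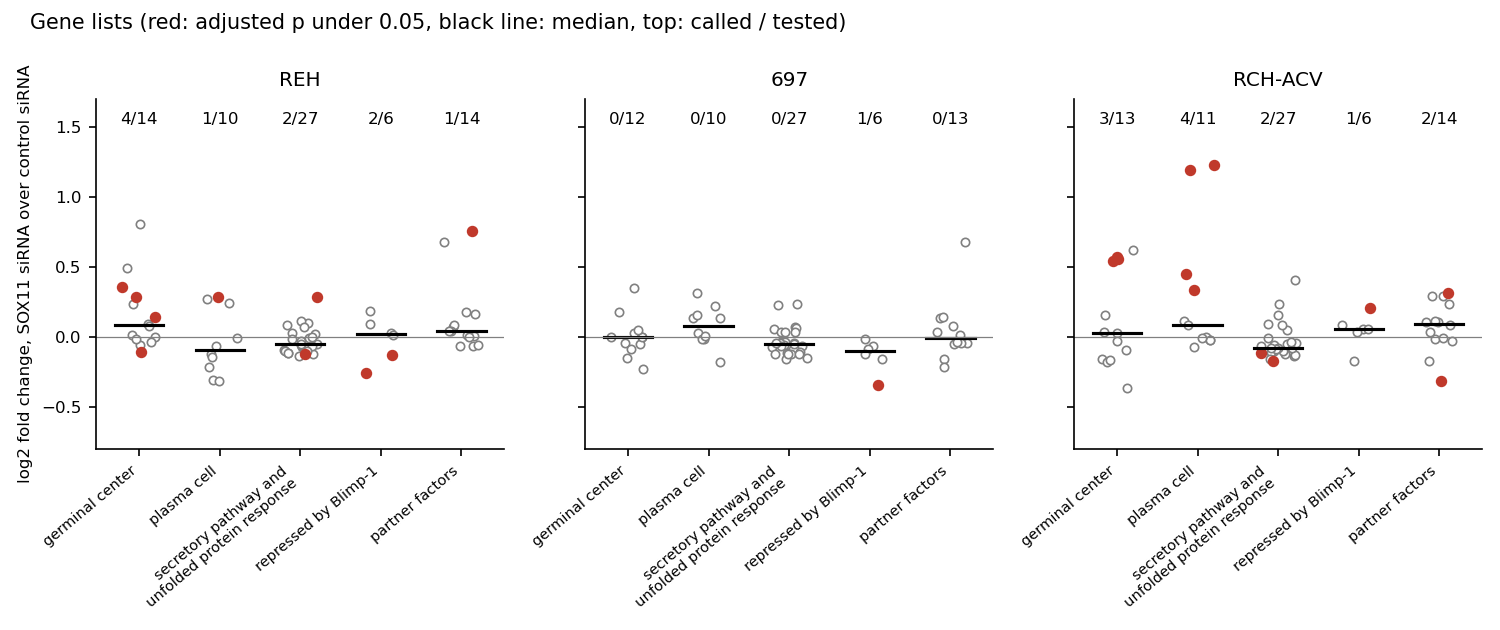
Log2 fold change of each tested gene of 5 lists in REH, 697 and RCH-ACV, with called genes in red, the list median as a black line and the number called over tested at the top. The largest changes are *CD27* and *TENT5C* in RCH-ACV, and in 697 a single gene, *EBF1*, was called.

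The genes whose level followed *JCHAIN* most closely over the 18 libraries, by Pearson correlation of log2 CPM with 14025 genes, were *AMMECR1* (r = 0.995), *EIF2D* (r = 0.993) and *PALS2* (r = 0.993). For *GCSAM* they were *NEK7* (r = 0.988), *ABCG2* (r = 0.985) and a transcript without a gene name (r = 0.976). The libraries fall into 3 lines, so these values mostly describe the order of the lines and carry no p-value. *AMMECR1* stood at 52.2 ± 2.09, 243 ± 23.6 and 95.4 ± 3.12 CPM in the controls of REH, 697 and RCH-ACV, scaled over all libraries, a far narrower span than that of *JCHAIN*. *ABCG2*, a drug efflux pump, stood at 6.40 ± 0.469, 26.3 ± 1.61 and 0.799 ± 0.406 CPM.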

How the data were processed

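RNA was sequenced from REH, 697 and RCH-ACV cells with *SOX11* or control siRNA. Per the study's methods, the authors trimmed reads with the FASTX Toolkit, aligned them to hg19 with STAR 2.5.3a, discarded reads with more than 2 locations and counted with HOMER. The deposited values are raw counts per RefSeq transcript, without normalization. The strand setting of the counting was not given in the sources used here.

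Transcripts were matched to symbols for 98.0% of transcripts and 99.0% of counts, and the transcript with the highest total was kept per gene, since overlapping transcripts share reads. Each line was fitted with edgeR 4.0.16 (R 4.3.3), TMM normalization, filterByExpr and the two-sided quasi-likelihood F-test, with Benjamini-Hochberg adjustment over all genes and a threshold of 0.05. The interaction used all 18 libraries and the control levels the 9 control libraries. DESeq2 1.42.0, other scalings and filters, a replicate block and leaving out libraries were alternatives. The script was tested on simulated data. RPKM used exon lengths of GENCODE MANE transcripts lifted to hg19 (the APPRIS principal transcript for *XBP1*). Promoter sequences are from RefSeq (GRCh38.p14). Totals of 7039594 to 16592492 counts limit low genes, and floors of 3 counts cover counting error only.

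The members and gene lists were chosen with earlier results of these data known. Named genes are *SOX11*, the 10 members, up to 2 called genes per list and line by size of change in REH and RCH-ACV, where calls fell in more than 3 lists, and up to 4 in 697, and the 3 genes most like *JCHAIN* and *GCSAM*. The other called genes of lists with 4 or fewer calls, *MPO*, *VPREB1* and the plasma cell markers were named after their values were seen. So were the B-cell precursor genes called in any line, the germinal center genes called in RCH-ACV only without knockdown replicate 3, and *EBF1* and *MYC* in RCH-ACV. A called gene of the partner factor list is not reported here.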

Additional observations from a re-analysis of the deposited data

Results flagged for a closer look

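The *SOX11* siRNA effect on *IRF4* differed between the 3 lines by the interaction term (edgeR adjusted p = 0.00134). *IRF4* was higher in 3 of 3 knockdown libraries of REH than in any control there, and overlapped between the groups in 697 and RCH-ACV. The adjusted p over the other settings lay between 6.87e-07 (DESeq2) and 0.0320 (with a block for the replicate).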

How the results depend on the processing

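The counts of all genes called moved most. With DESeq2 they were 315 in REH and 577 in RCH-ACV. Leaving out 1 library gave 299 to 521 in REH (under 595 divided by 1.5 without *SOX11* siRNA replicates 1 or 2 or control replicate 3), 25 to 71 in 697 (without *SOX11* siRNA replicates 1 or 2 or control replicates 2 or 3), 386 to 2518 in RCH-ACV (any library) and 57 to 185 for the difference between lines. In RCH-ACV the cause of the rise to 2518 was not tested. Of 338 values for tested members under the siRNA, 307 kept direction and side of the threshold, 12 lost the call, 6 gained it and 13 changed sign, and of 300 values for control levels 282 were kept, 11 lost, 4 gained and 3 changed sign. All sign changes were of values near 0: *XBP1* in REH (-0.0084 with library size alone, -0.018 to 0.020 leaving out 1 library), *BCL6* in REH (-0.051 to 0.016), *MZB1* in 697 (-0.022 to 0.16), *BCL6* in 697 (-0.12 to 0.034), *SPIB* in 697 (-0.24 to 0.0030) and *MZB1* between REH and 697 controls (-0.033 to 0.11). The calls of *IRF4* and *BACH2* in REH were kept in all 13 alternatives. List counts and list genes in RCH-ACV without *SOX11* siRNA replicate 3, the leave-1-out values of the difference and its pairs of lines were added after seeing the data. Depth left *JCHAIN* and *PRDM1* in REH untested.

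Replicate numbers did not pair the libraries: the correlation of same-numbered deviations ran from -0.25 to 0.26 over the 9 pairs. With the replicate block the counts were 29 in 697 and 45 for the difference between lines, and the block changed no call of an siRNA effect on a member.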
